A study of Mus musculus with 24 samples.

Results

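The 43 genes described here encode collagens, other matrix proteins, the enzymes that modify and cross-link collagen, and the proteases and protease inhibitors that remodel matrix. They were chosen by gene symbol: a member was read from the array row (probe set) whose single symbol in the probe annotation is that gene, and from the brightest row where a gene has several. Of the 43 members, 41 had such a row. Fbn1, which encodes fibrillin-1, had none, and the cross-linking enzyme gene Loxl2 had only a row shared with other symbols. Of the 41, 39 passed a filter on dim rows and were tested among 14489 genes. The 2 that failed it were Postn (probe set 10492021), which encodes periostin and read 4.53 to 4.87 log2 units over the 24 arrays, and Lum (10365983), which encodes the collagen-binding proteoglycan lumican and read 3.69 to 4.12.

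The arrays measured total RNA of MLO-Y4 cells, an immortalised mouse line with osteocyte features. Cells of the E2 arm received the Cx43(E2) antibody, which closes connexin 43 hemichannels in the cell membrane, at 28 µg/ml, and cells of the IgG arm received an irrelevant rabbit IgG. After 30 min both were kept either at 1g, 2g or ug, which are positions of the HMGE platform (a magnet whose field changes the effective gravity), or in an incubator (C), which gave 8 groups of 3 arrays: E2 and IgG at C, 1g, 2g and ug. The antibody acts on a protein, so no RNA on the array checks that label. All cells are of 1 line, and how long they stayed on the platform is not stated in the labels. Titles number the arrays of a group 1 to 3. A set is the 4 arrays of 1 arm with 1 such number, written E2 3 or IgG 1. Nothing says that replicates were separate cultures, so p-values measure the spread between these arrays.

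Fibrillar collagens are secreted as procollagens whose chains are hydroxylated on proline and lysine, trimmed, assembled into fibrils and cross-linked by lysyl oxidases. Collagens of the basement membrane and the beaded-filament collagen VI surround cells and link them to the fibrils, with fibronectin, tenascin and small proteoglycans. Matrix metalloproteinases (MMPs) and ADAMTS proteases cut these proteins, and tissue inhibitors of metalloproteinases (TIMPs) block them. In bone, osteoblasts lay down most of the collagen I, and osteocytes sit within it and can remodel the matrix around them.

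Of 10 osteocyte markers, 7 passed the filter, among them Pdpn, Gja1, Sost and Fgf23, while Dmp1, Phex and Mepe did not. The log2 levels of all 10, summed on each array, were 80.8 to 81.3 in set E2 3. They were 81.4 to 82.3 in E2 2 and 81.7 to 82.7 in E2 1. In the IgG arm they were 81.8 to 82.3 in IgG 3, 80.7 to 81.5 in IgG 2 and 81.1 to 81.3 in IgG 1. Number 3 of each arm thus did not overlap the other numbers of that arm. The gap was narrow in the E2 arm, where E2 3 reached 81.33 and E2 2 began at 81.35. Of the 7 that passed, 3 were called for E2 3 against E2 2 (1 higher and 2 lower), where 34.9% of all genes were called. For IgG 3 against IgG 1, 3 were called (2 higher and 1 lower), with 24.1% of all genes. The part of these markers in the matrix differences was not tested. Of 6 macrophage markers 4 passed, and the defining Adgre1 and Ptprc did not. Arrays differed by set: deviations from the group means correlated at 0.195 to 0.812 in all 36 pairs of arrays with the same arm and number, and at -0.748 to -0.0141 in the 48 pairs with the same number in different arms. In the 72 pairs with another number in the same arm they ranged from -0.675 to 0.548, with 23 above 0.1, and numbers 1 and 2 of the IgG arm differed in 9 genes. Fewer genes were called between number 3 of an arm and numbers 1 and 2 of the other arm (7.63% to 18.5% of genes) than between number 3 and numbers 1 and 2 of its own arm (24.1% to 35.7%). The arrays are grouped as titled. Whether the titles of the number 3 arrays name the right arm was not tested, and this doubt bears on every value for E2 3, IgG 3 and the antibody. Array medians of 6.48 to 6.65 overlapped between sets. In bulk RNA, fewer cells of a type and less RNA per cell cannot be told apart.

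The largest differences among the matrix genes lay between the title sets. Col1a1, Col3a1, Col5a2, Col12a1 and the 3 collagen VI genes, the hydroxylase genes P4ha3 and Plod1 and the cross-linking enzyme genes Lox, Loxl1 and Loxl3 read lower in set E2 3 than in E2 1 and E2 2, and higher in set IgG 3 than in IgG 1 and IgG 2. Mmp10 and Timp3 went the other way in both arms against number 2 of the same arm. In limma's F test over the 6 sets, with environment fitted within each arm, 36 of the 39 members were called at an adjusted p below 0.05, against 59% of all genes. The members not called were Mmp2 (adjusted p = 0.176), Timp2 (0.276) and Adamts1 (0.438). The median share of a member's variance that lay between sets was 78.6%, against 51.5% over all genes. The environment within an arm accounted for 6.31% of a member's variance at the median, against 16.8% over all genes. These set differences are measured against the spread among the 4 arrays of a set, each in another environment, and a set is a single unit in its arm.

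Between sets of 1 arm, 27 members were called for E2 3 against E2 2, 4 higher and 23 lower, where 34.9% of all genes were called (18.7% higher and 16.3% lower). For E2 3 against E2 1, 27 members were called, 3 higher and 24 lower, with 35.7% of all genes called. For IgG 3 against IgG 2, 24 members were called, 22 higher and 2 lower, with 25.9% of all genes called. For IgG 3 against IgG 1, 22 members were called, 20 higher and 2 lower, with 24.1% of all genes called (10.8% higher and 13.3% lower). The median member differed by -0.17 log2 units in E2 3 against E2 2 (0.04 over all genes) and by 0.16 in IgG 3 against IgG 1 (-0.00 over all genes). E2 2 against E2 1 had 7 members called with 2.6% of all genes, and 0 to 4 members called in the fits that left out 1 environment. IgG 2 against IgG 1 had 0 members called by limma, with 0.0621% of all genes called. At an unadjusted p below 0.05 it had 4 members, beside 676 of all genes.

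Between arms, where the antibody and the set are both in the difference, the counts differed by set. E2 1 and E2 2 against IgG 1 and IgG 2 had 25 to 30 members called, with 39.7% to 43% of all genes. E2 3 against IgG 3 had 28 members called, 4 higher and 24 lower, with 33.5% of all genes. E2 3 against IgG 2 had 6 members called, all lower, with 7.63% of all genes, and 0 to 2 members in 4 fits that left out the C, the 2g or the ug arrays or the 2g and ug arrays of IgG 2. E2 3 against IgG 1 had 12 members called with 18% of all genes, and 5 and 6 without the C and without the ug arrays. E2 2 against IgG 3 had 9 members called with 15.1% of all genes, and 2 without the 2g arrays. E2 1 against IgG 3 had 7 members called with 18.5% of all genes, a share of members of 17.9%, and 4 without the 1g arrays. The 3 highest set means of a gene were E2 1, E2 2 and IgG 3 for 22 of 39 members (56.4%), against 16.9% of all genes. They were E2 3, IgG 1 and IgG 2 for 4 members, Mmp10, Timp3, Col8a1 and Mmp3 (10.3%), against 20.1% of all genes.

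**Figure D1:**
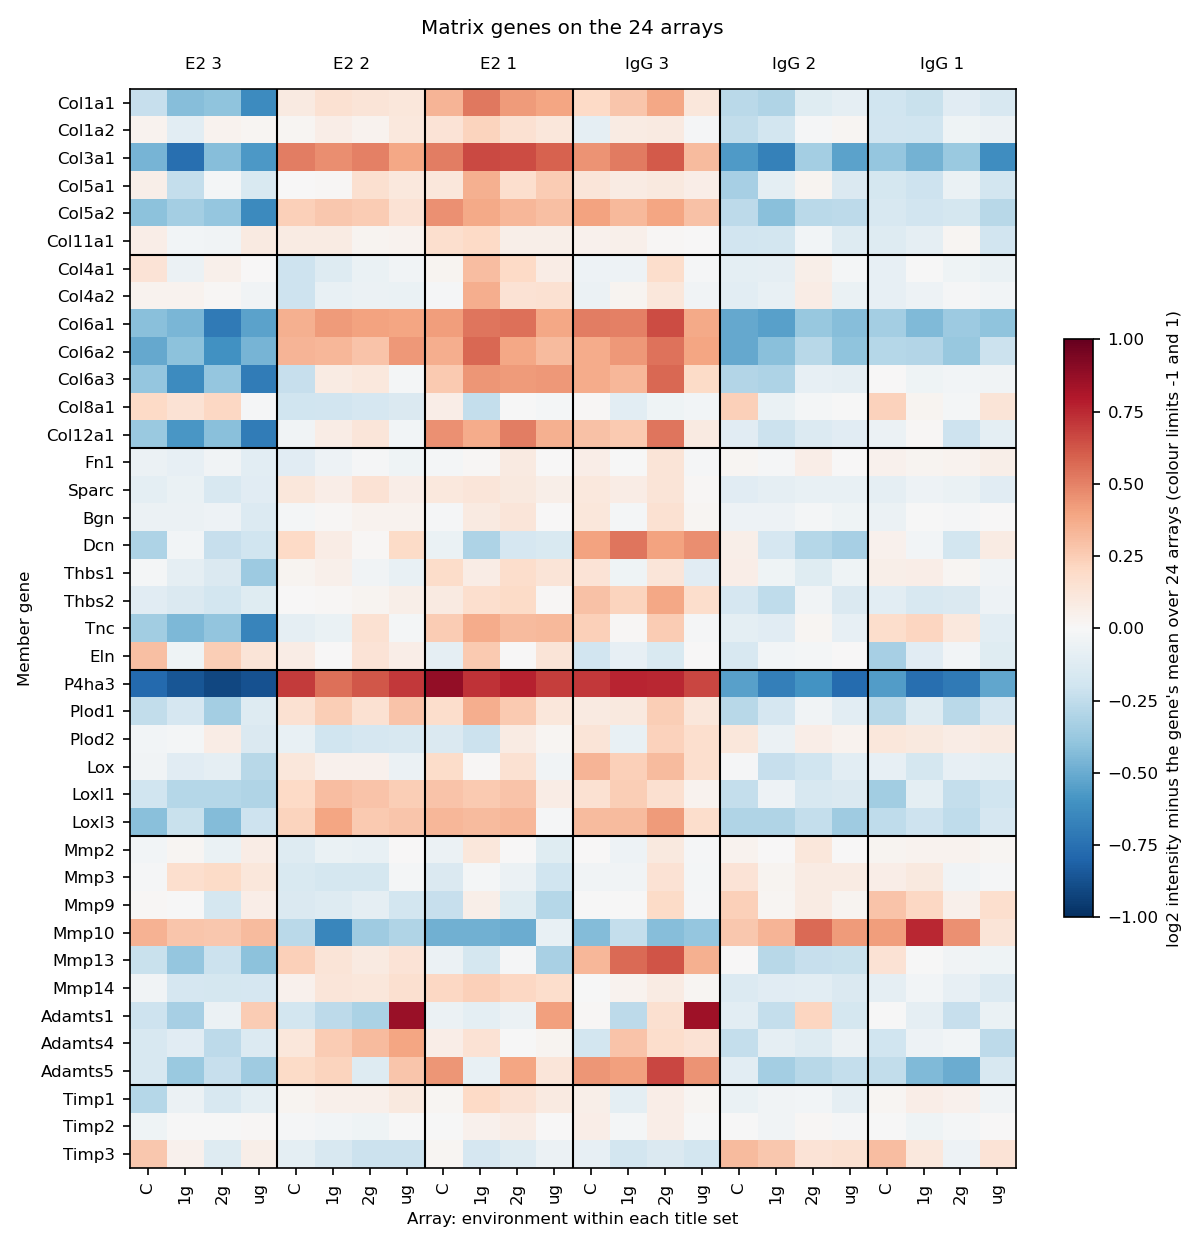
Each cell is the log2 intensity of 1 member on 1 array minus that gene's mean over the 24 arrays, with red above and blue below the mean; black lines part the 6 title sets and the groups of genes by role. The rows of P4ha3, Col3a1 and Col6a1 change colour between sets and hardly within them, and the ug column of Adamts1 is red in 4 of the 6 sets.

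**Figure D2:**
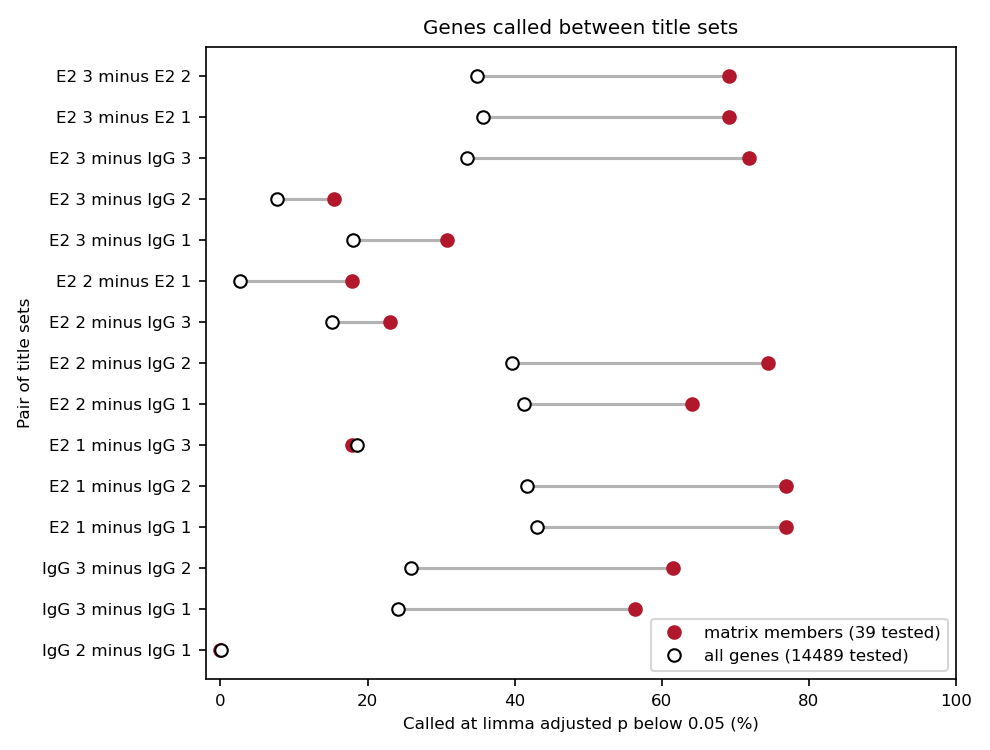
The horizontal axis gives the percent of genes called at a limma adjusted p below 0.05 for each pair of title sets, filled points for the 39 members and open points for the 14489 genes. The members' share is above that of all genes in 13 of the 15 pairs and below it for E2 1 minus IgG 3 and IgG 2 minus IgG 1.

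P4ha3 (10555323), which encodes a catalytic subunit of the prolyl 4-hydroxylase that stabilises the collagen triple helix, had the widest range of set means among the members, 1.62 log2 units. At C, 1g, 2g and ug it read 7.88, 7.80, 7.74 and 7.78 in set E2 3, 9.35, 9.20, 9.27 and 9.36 in E2 2, and 9.53, 9.37, 9.42 and 9.34 in E2 1. In the IgG arm the values were 9.36, 9.41, 9.40 and 9.32 in IgG 3, 8.11, 7.96, 8.06 and 7.88 in IgG 2, and 8.10, 7.90, 7.95 and 8.13 in set IgG 1. All arrays of E2 1, E2 2 and IgG 3 were at 9.20 or more and all others at 8.13 or less, so these sets did not overlap at any position. It was lower in E2 3 than in E2 2 by 2.82-fold (-1.50 ± 0.06 log2 units, SE, adjusted p = 3.18e-13) and higher in IgG 3 than in IgG 1 by 2.56-fold (1.36 ± 0.06, adjusted p = 2.52e-12). Sets accounted for 99.0% of its variance.

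Among the other enzymes, Plod1, whose product hydroxylates lysine within the helix, averaged 10.42 ± 0.09 in E2 3 and 10.85 ± 0.07 in E2 2 (SD, n = 4 arrays each), a difference of -0.43 ± 0.05 (adjusted p = 2.64e-06). Plod2, which hydroxylates the telopeptide lysines used in cross-links, was not called in either pair, at 0.12 ± 0.06 in E2 3 against E2 2 (adjusted p = 0.131) and 0.02 ± 0.06 in IgG 3 against IgG 1 (0.864). The lysyl oxidase genes Lox, Loxl1 and Loxl3, whose products start the cross-linking of collagen and elastin, were all lower in E2 3 than in E2 2, by -0.16 ± 0.04, -0.53 ± 0.06 and -0.61 ± 0.06. They were all higher in IgG 3 than in IgG 1, by 0.38 ± 0.04, 0.37 ± 0.06 and 0.53 ± 0.06 (adjusted p = 5.16e-05 or less). Of the 6 enzyme genes tested, 5 were lower in E2 3 than in E2 2 (16.3% of all genes) and 5 were higher in IgG 3 than in IgG 1 (10.8% of all genes).

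Of the fibrillar collagens, Col3a1 (10346015), the chain of collagen III, followed P4ha3 most closely. At C, 1g, 2g and ug it read 8.09, 7.80, 8.12 and 7.97 in E2 3, 9.06, 9.01, 9.06 and 8.94 in E2 2, and 9.06, 9.21, 9.20 and 9.14 in E2 1. In the IgG arm it read 9.00, 9.07, 9.16 and 8.86 in IgG 3, 7.98, 7.87, 8.21 and 8.01 in IgG 2, and 8.16, 8.08, 8.18 and 7.93 in set IgG 1. The arrays of E2 3 lay below all those of E2 2 and E2 1, and those of IgG 3 above all those of IgG 2 and IgG 1. It was lower in E2 3 than in E2 2 by 2.03-fold (adjusted p = 4.04e-10) and higher in IgG 3 than in IgG 1 by 1.91-fold (2.53e-09).

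Col1a1 (10380419), whose chain makes up most of the collagen I trimer, averaged 9.34 ± 0.16, 9.89 ± 0.03 and 10.19 ± 0.08 in E2 3, E2 2 and E2 1, and 10.01 ± 0.12, 9.57 ± 0.10 and 9.60 ± 0.05 in IgG 3, IgG 2 and IgG 1 (SD, n = 4). It differed between E2 2 and E2 1 as well, by -0.30 ± 0.06 (adjusted p = 0.0194), a call lost without the 1g or without the 2g arrays. Its partner chain Col1a2 moved less: it was -0.06 ± 0.06 in E2 3 against E2 2 (adjusted p = 0.474) and 0.14 ± 0.06 in IgG 3 against IgG 1 (0.0987), called in neither. Col5a2, a chain of collagen V, which nucleates collagen fibrils, averaged 7.60 ± 0.13, 8.27 ± 0.06 and 8.41 ± 0.07 in E2 3, E2 2 and E2 1, and 8.40 ± 0.05, 7.74 ± 0.08 and 7.84 ± 0.05 in IgG 3, IgG 2 and IgG 1. Of the 6 fibrillar genes, 3 were called lower in E2 3 than in E2 2 (16.3% of all genes), and 4 were called higher in IgG 3 than in IgG 1 (10.8% of all genes). Col11a1, a chain of collagen XI, was called in neither of these pairs.

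The 3 collagen VI genes were all lower in E2 3 than in E2 2 and higher in IgG 3 than in IgG 1, but Col6a3 differed from the other chains in set E2 2. Col6a1 (10370210) read 9.32 to 9.61 in E2 3, 10.38 to 10.45 in E2 2, 10.41 to 10.58 in E2 1, 10.40 to 10.68 in IgG 3, 9.48 to 9.64 in IgG 2 and 9.58 to 9.68 in IgG 1. Col6a2 was lower in E2 3 than in E2 2 by -0.84 ± 0.06 (adjusted p = 6.14e-10) and higher in IgG 3 than in IgG 1 by 0.73 ± 0.06 (1e-08). Col6a3 was lower in the first by -0.51 ± 0.08 and higher in the second by 0.39 ± 0.08. Between E2 2 and IgG 1, Col6a1 and Col6a2 were higher in E2 2, by 0.78 ± 0.06 and 0.64 ± 0.06 (adjusted p = 4.28e-08 or less), and Col6a3 was at 0.01 ± 0.08 (0.952). Between E2 2 and E2 1, Col6a3 was lower in E2 2, by -0.41 ± 0.08 (adjusted p = 0.0134), and Col6a1 and Col6a2 were at -0.08 ± 0.06 and -0.06 ± 0.06 (0.561 and 0.669). Col12a1, whose product binds along fibrils, averaged 7.01 ± 0.15 in E2 3, 7.56 ± 0.08 in E2 2 and 7.96 ± 0.07 in E2 1, and 7.83 ± 0.18 in IgG 3, 7.39 ± 0.05 in IgG 2 and 7.44 ± 0.09 in IgG 1. The basement membrane chains Col4a1 and Col4a2 were called in none of the pairs with set E2 3 or IgG 3, and were lower in E2 2 than in E2 1 by -0.26 ± 0.07 and -0.26 ± 0.06 (adjusted p = 0.0356 and 0.0246). Every call of a member between E2 2 and E2 1, that of Col6a3 included, was lost without the 1g or without the 2g arrays. Col8a1, a short-chain collagen, was higher in E2 3 than in E2 2 by 0.31 ± 0.06 (adjusted p = 0.000212) and was -0.13 ± 0.06 in IgG 3 against IgG 1 (0.1).

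Across the 24 arrays Col6a1 correlated with Col6a2 at r = 0.986 and with P4ha3 at 0.983, and Col3a1 with P4ha3 at 0.973. After the set means were removed, these became 0.583, 0.221 and -0.02, while Col4a1 with Col4a2 gave 0.906 before and 0.804 after. The arrays share sets, so these values are descriptions. The likeness of Col3a1 and P4ha3 lay in the set means and not within sets.

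The promoters of P4ha3, Col3a1 and Col6a1 are shown because these 3 genes had the widest ranges of set means. Each runs 5′ to 3′ on the gene's strand from 250 bases before the RefSeq start site to 50 bases after it, in build GRCm38.p6: chr7:100285270-100285569 (plus strand) for P4ha3, chr1:45311288-45311587 (plus) for Col3a1 and chr10:76725995-76726294 (minus) for Col6a1. Capitals mark matches on either strand to 4 motifs. The AP-1 motif was searched as TGANTCA, where N is any base. For the TATA box the letters searched were TATAAA. The motif of the TEAD factors was searched as GGAATG. That of Sp1 was searched as GGGCGG.
P4ha3: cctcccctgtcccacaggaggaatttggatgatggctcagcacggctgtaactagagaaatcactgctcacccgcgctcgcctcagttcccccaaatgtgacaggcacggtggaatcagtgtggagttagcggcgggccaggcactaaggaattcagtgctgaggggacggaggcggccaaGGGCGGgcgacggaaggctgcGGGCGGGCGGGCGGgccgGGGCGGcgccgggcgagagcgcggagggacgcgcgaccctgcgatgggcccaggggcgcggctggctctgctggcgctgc
Col3a1: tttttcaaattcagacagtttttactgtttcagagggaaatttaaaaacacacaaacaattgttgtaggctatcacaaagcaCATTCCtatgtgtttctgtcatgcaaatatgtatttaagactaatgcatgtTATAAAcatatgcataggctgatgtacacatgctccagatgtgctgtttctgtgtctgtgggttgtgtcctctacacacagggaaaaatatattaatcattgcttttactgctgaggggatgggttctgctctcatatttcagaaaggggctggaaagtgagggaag
Col6a1: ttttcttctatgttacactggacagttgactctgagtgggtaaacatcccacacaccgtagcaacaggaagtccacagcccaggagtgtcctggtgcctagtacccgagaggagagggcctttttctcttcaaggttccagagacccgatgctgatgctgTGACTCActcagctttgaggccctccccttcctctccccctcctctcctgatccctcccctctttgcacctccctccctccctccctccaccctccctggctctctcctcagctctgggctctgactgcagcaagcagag
P4ha3 held 5 Sp1 matches, some of them overlapping, at -69 to -30 from the start site. Col3a1 held a TATA box match at -117 and a TEAD match on the minus strand at -168, and Col6a1 held an AP-1 match at -90. Of 32851 promoters of the same length, 35.7% held the Sp1 motif, 13.6% the TATA box, 14.7% the TEAD motif and 7.81% the AP-1 motif. The 3 genes thus shared none of these motifs. A promoter was listed for 26 member genes, and 17 of them held the Sp1 motif.

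Among the glycoproteins and proteoglycans, Sparc, which encodes the collagen-binding protein osteonectin, averaged 12.76 ± 0.04 in E2 3 and 12.97 ± 0.04 in E2 2, and 12.95 ± 0.05 in IgG 3 and 12.79 ± 0.03 in IgG 1. Tnc, which encodes the adhesion-modulating tenascin-C, was lower in E2 3 than in E2 2 by -0.46 ± 0.07 (adjusted p = 1.75e-05) and was 0.02 ± 0.07 in IgG 3 against IgG 1 (0.855). Dcn, which encodes the fibril-binding proteoglycan decorin, was highest in IgG 3, at 9.05 ± 0.07, and averaged 8.40 ± 0.12, 8.72 ± 0.09 and 8.42 ± 0.10 in E2 3, E2 2 and E2 1, and 8.41 ± 0.17 and 8.57 ± 0.12 in IgG 2 and IgG 1. Thbs2, which encodes the matricellular thrombospondin 2, was lower in E2 3 than in E2 2 by -0.17 ± 0.04 and higher in IgG 3 than in IgG 1 by 0.39 ± 0.04. Bgn, which encodes biglycan, was -0.09 ± 0.03 in E2 3 against E2 2 (adjusted p = 0.024) and 0.08 ± 0.03 in IgG 3 against IgG 1 (0.0607). Fn1, which encodes fibronectin, read 13.19 to 13.43 on all arrays and was called in neither pair. The 5 brightest member rows were those of Fn1, Sparc, Bgn, Mmp2 and Timp1. Their set means ranged over 0.10 to 0.26 log2 units, against 0.39 for the median member. Levels of different probe sets are not compared as RNA amounts.

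The proteases did not share 1 pattern. Mmp10 (10583090), the gene of stromelysin-2, read 7.59, 7.52, 7.51 and 7.56 at C, 1g, 2g and ug in E2 3, against 6.97, 6.59, 6.89 and 6.94 in E2 2 and 6.76, 6.76, 6.74 and 7.16 in E2 1. It read 6.81, 7.002, 6.82 and 6.86 in IgG 3, against 7.51, 7.58, 7.81 and 7.67 in IgG 2 and 7.66, 7.997, 7.70 and 7.37 in IgG 1. All arrays of E2 3, IgG 2 and IgG 1 were at 7.37 or more and all others at 7.16 or less, the reverse of P4ha3. It was higher in E2 3 than in E2 2 by 1.62-fold (adjusted p = 1.07e-05) and lower in IgG 3 than in IgG 1 by 1.75-fold (2.9e-06). Over the 24 arrays it correlated with P4ha3 at r = -0.921 and with Loxl3 at -0.924.

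Mmp13 (10583044), the gene of collagenase-3, which cleaves fibrillar collagen in bone, had its highest set mean in IgG 3, 11.75 ± 0.15, against 11.10 ± 0.12 in IgG 2 and 11.30 ± 0.09 in IgG 1. In the E2 arm it averaged 10.97 ± 0.10 in E2 3, 11.43 ± 0.06 in E2 2 and 11.14 ± 0.14 in E2 1. Mmp3 (10583071), the gene of stromelysin-1, averaged 11.68 ± 0.09 in E2 3, against 11.43 ± 0.07 in E2 2 (0.25 ± 0.05, adjusted p = 0.000708), and did not pass between IgG 3 and IgG 1 (-0.01 ± 0.05, 0.89). Over the 24 arrays the 3 genes correlated at r = 0.601 (Mmp3 with Mmp10), -0.179 (Mmp3 with Mmp13) and -0.523 (Mmp10 with Mmp13).

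**Figure D3:**
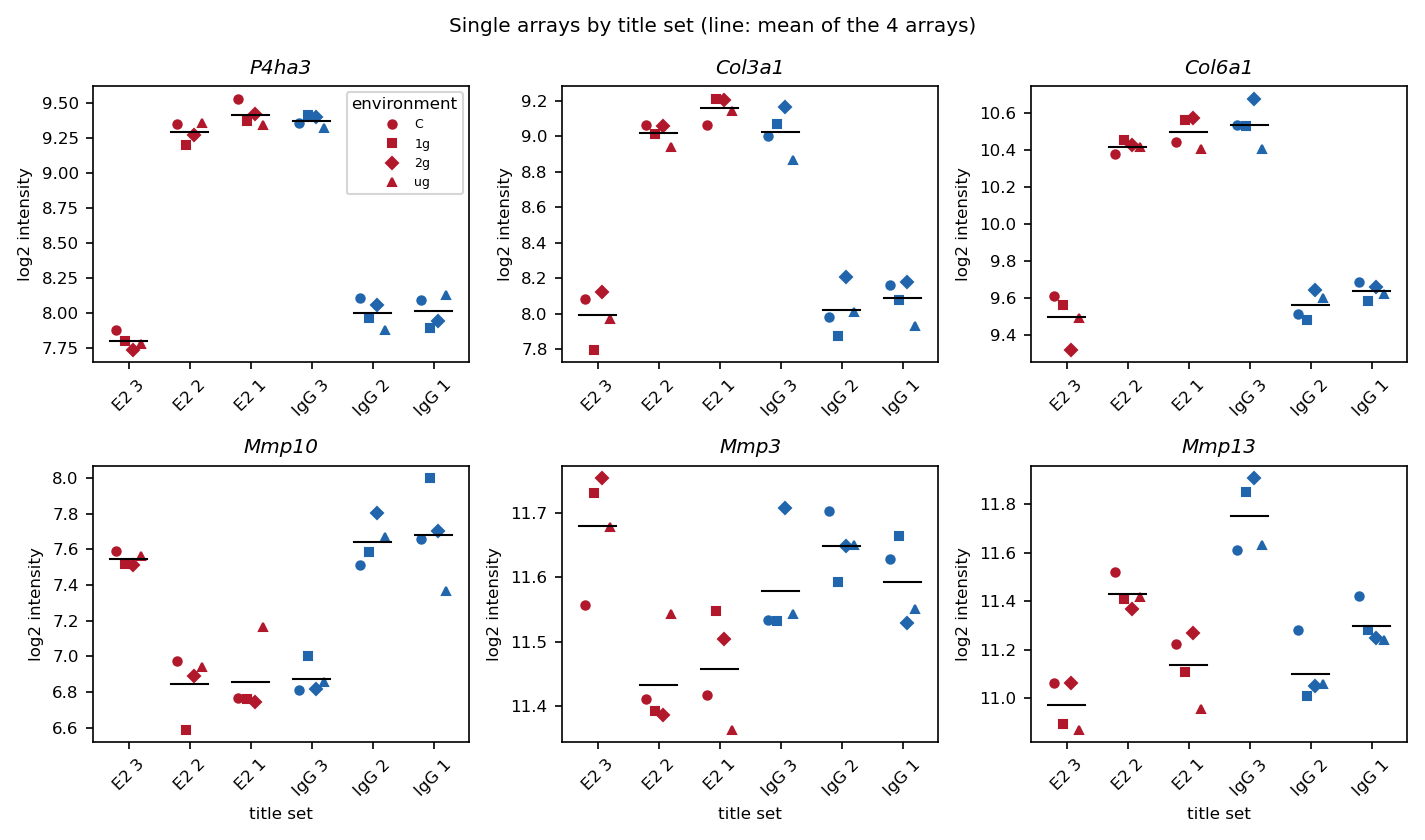
Each point is the log2 intensity of 1 array, by title set on the horizontal axis, with red for the E2 arm and blue for the IgG arm, marker shape for the environment and a line at the mean of the 4 arrays. P4ha3, Col3a1 and Col6a1 are low in E2 3, IgG 2 and IgG 1, Mmp10 is high in those 3 sets, Mmp3 has its 3 highest means there with overlapping arrays, and Mmp13 is highest in IgG 3.

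Mmp3, Mmp10 and Mmp13 are shown for their promoters because all are MMP genes of chromosome 9. Mmp3 and Mmp10 had the same 3 highest set means (E2 3, IgG 1 and IgG 2), and Mmp13 had others (E2 2, IgG 1 and IgG 3). The windows are drawn as above, all on the plus strand of GRCm38.p6: chr9:7445572-7445871 for Mmp3, chr9:7502092-7502391 for Mmp10 and chr9:7272264-7272563 for Mmp13.
Mmp3: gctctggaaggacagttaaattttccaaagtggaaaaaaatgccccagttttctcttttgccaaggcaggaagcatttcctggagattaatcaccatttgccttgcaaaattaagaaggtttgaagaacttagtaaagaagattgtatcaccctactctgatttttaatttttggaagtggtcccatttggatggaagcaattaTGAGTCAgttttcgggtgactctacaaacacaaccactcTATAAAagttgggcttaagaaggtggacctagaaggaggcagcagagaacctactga
Mmp10: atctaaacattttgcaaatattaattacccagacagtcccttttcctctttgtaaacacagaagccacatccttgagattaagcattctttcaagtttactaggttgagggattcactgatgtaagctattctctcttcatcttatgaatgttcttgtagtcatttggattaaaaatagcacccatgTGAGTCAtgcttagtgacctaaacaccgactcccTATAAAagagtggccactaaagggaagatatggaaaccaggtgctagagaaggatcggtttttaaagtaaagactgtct
Mmp13: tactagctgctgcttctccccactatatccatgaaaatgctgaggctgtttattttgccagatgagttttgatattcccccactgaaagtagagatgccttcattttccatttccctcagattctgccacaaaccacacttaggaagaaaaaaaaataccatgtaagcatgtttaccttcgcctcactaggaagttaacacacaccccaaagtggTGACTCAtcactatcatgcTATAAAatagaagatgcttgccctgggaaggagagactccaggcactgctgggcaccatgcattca
Each held an AP-1 and a TATA box match, at -46 and -7 in Mmp3, -63 and -29 in Mmp10, and -35 and -16 in Mmp13. Only Col6a1 held the AP-1 motif among the other 23 member genes with a promoter. A match to letters is a description of the sequence.

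Of the remaining proteases, Adamts5 (10440534), the gene of an aggrecan-cleaving protease, averaged 8.40 ± 0.10 in E2 3, 8.82 ± 0.18 in E2 2 and 8.90 ± 0.24 in E2 1, and 9.17 ± 0.12 in IgG 3, 8.44 ± 0.10 in IgG 2 and 8.34 ± 0.16 in IgG 1. Adamts4, the gene of a related protease, was lower in E2 3 than in E2 2 by -0.44 ± 0.07 and higher in IgG 3 than in IgG 1 by 0.24 ± 0.07 (adjusted p = 0.0172). Mmp14, the gene of the membrane-bound protease that activates Mmp2, was lower in E2 3 than in E2 2 by -0.25 ± 0.04 and higher in IgG 3 than in IgG 1 by 0.12 ± 0.04 (0.0359). Of the inhibitors, Timp3 was higher in E2 3 than in E2 2 by 0.23 ± 0.06 (adjusted p = 0.00558) and lower in IgG 3 than in IgG 1 by -0.28 ± 0.06 (0.00216). Timp1 was lower in E2 3 than in E2 2 by -0.20 ± 0.04 (0.000112) and was -0.01 ± 0.04 in IgG 3 against IgG 1 (0.869).

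Some markers of other cells moved with the same sets, and others did not. None of the 3 endothelial markers that passed was called in the F test over the 6 sets. The summed levels of muscle and of epithelial markers overlapped between E2 3 and E2 2 and between IgG 3 and IgG 1. The summed level of the 6 macrophage markers was 39.8 to 40.5 in E2 3, 38.2 to 38.7 in E2 2 and 38.0 to 39.2 in E2 1, and 37.9 to 38.9 in IgG 3, 39.8 to 40.3 in IgG 2 and 39.7 to 40.5 in IgG 1. Of the 4 that passed, limma called 2 higher in E2 3 than in E2 2 and 2 than in E2 1. It called 3 lower in IgG 3 than in IgG 2 and 3 than in IgG 1. Of all genes, 18.7% and 18.4% were called higher in the E2 pairs, and 15.3% and 13.3% lower in the IgG pairs. Cd68 had the smallest p in each, and Adgre1 and Ptprc failed the filter on dim rows. The only osteoblast marker that passed the filter, Alpl, was -0.59 in E2 3 against E2 2 and 0.45 in IgG 3 against IgG 1. Of 3 chondrocyte markers that passed, only Sox9 was called lower in E2 3 than in E2 1 and E2 2. It was also the only 1 called higher in IgG 3 than in IgG 1 and IgG 2. The median difference of these 3 markers was 0.05 in E2 3 against E2 2, so the other chondrocyte markers were not lower there. Of 3 adipocyte markers that passed, Fabp4 was called in the same 4 pairs as Sox9, higher in E2 3 and lower in IgG 3. The summed level of all 5 chondrocyte markers, of which 3 passed, was 34.9 to 36.0 in E2 3. It was 35.4 to 36.1 in E2 2 and 36.1 to 37.0 in E2 1. In the IgG arm it was 35.5 to 36.5 in IgG 3, 33.9 to 35.6 in IgG 2 and 34.6 to 35.4 in IgG 1. The part of any of these in the matrix differences was not tested.

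The question of the platform was asked as each position against the incubator, and the positions against one another, within each arm. In all 12 such comparisons, in the mean of the 3 positions against C in each arm and in the 4 differences between arms, limma called 0 members and 0 genes (0% of all genes). At an unadjusted p below 0.05 this fit, which has no block, had at most 1 member in any of them, beside 103 to 1447 of all genes. The members with the smallest p for the IgG platform mean were Eln, which encodes elastin, at 0.17 ± 0.08 (adjusted p = 0.474), Col1a2 at 0.14 ± 0.07 (0.51) and Col8a1 at -0.17 ± 0.09 (0.517). In the E2 arm they were Timp1 at 0.12 ± 0.07, Timp3 at -0.17 ± 0.11 and Mmp2, the gene of gelatinase A, at 0.06 ± 0.04, all with an adjusted p of 1.00. With arm and number as a block, 102 genes (0.704%) were called for the IgG platform mean and 7 (0.0483%) for IgG 1g against C, with 0 members in each. At an unadjusted p below 0.05 the blocked fit had 0 to 8 of the 39 members in these comparisons. It had 8 members for the IgG platform mean, beside 2945 of all 14489 genes. For E2 ug against C it had 6 members, beside 1485 genes, and for IgG 2g against C 5 members, beside 2555 genes.

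Within sets, some members kept 1 direction. Timp3 (10365482), whose product is bound to matrix, was lower than at C in all 18 pairs of a position with C of the same set, as were 56 genes (0.387% of all). At C, 1g, 2g and ug it read 8.18, 7.95, 7.78 and 7.96 in E2 3, 7.81, 7.74, 7.69 and 7.69 in E2 2, and 7.92, 7.74, 7.78 and 7.85 in E2 1. In the IgG arm it read 7.82, 7.72, 7.76 and 7.72 in IgG 3, 8.22, 8.17, 8.04 and 8.06 in IgG 2, and 8.22, 8.01, 7.85 and 8.05 in set IgG 1. The groups overlapped, because the sets differ by more than the positions do. Lox (10458894) was lower in 17 of the 18 pairs. The mean of the 3 positions was lower than C in all 6 sets for Timp3, Lox, Col5a2 and Thbs1, the gene of thrombospondin 1 (4 of 39 members, against 5.56% of all genes), and higher in all 6 for Plod1 (1 member, against 2.97%).

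Pooled over both arms, a comparison added after values were seen, Timp3 was -0.16 ± 0.08 at the 3 positions against C (adjusted p = 0.788, or 0.0693 with arm and number as a block). Lox was -0.11 ± 0.08 at the 3 positions (adjusted p = 0.885) and -0.15 ± 0.10 at ug against C (0.909). With the block it was the 1 member called, at -0.11 ± 0.02 for the 3 positions (adjusted p = 0.0359, with 0.669% of all genes called) and -0.15 ± 0.03 for ug (0.0249, with 0.628%). The call was lost without any 1 replicate number, where the adjusted p was 0.106 to 0.684 for the 3 positions and 0.0717 to 0.255 for ug. It was also lost without a variance trend (0.124 and 0.0922), and for the 3 positions without the 2g and ug arrays of IgG 2 (0.08). Thbs1 was -0.16 ± 0.07 at ug against C (adjusted p = 0.79, or 0.0651 with the block).

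Adamts1 (10440522), the gene of a protease that cleaves the proteoglycans aggrecan and versican, had the members' smallest share of variance between sets, 10.3%. Its share by environment, 55.2%, was the largest. Its set means ranged over 0.29 log2 units, rank 27 among the members, so others varied less by set. At ug it read 9.17, 9.78 and 9.32 in E2 3, E2 2 and E2 1, against 8.71, 8.73 and 8.86 at C in the same sets. In the IgG arm it read 9.76, 8.74 and 8.85 at ug in IgG 3, IgG 2 and IgG 1, against 8.92, 8.81 and 8.91 at C. The 3 E2 arrays at ug lay above all 3 at C, while in the IgG arm 1 array of 3 did. The difference was 0.66 ± 0.19 in the E2 arm (unadjusted p = 0.00293 in limma, adjusted p = 1.00) and 0.23 ± 0.19 in the IgG arm (adjusted p = 0.973), where it was -0.07 without replicate 3. The difference between arms was 0.42 ± 0.27 (adjusted p = 1.00). Over both arms it was 0.44 ± 0.14 (adjusted p = 0.569, or 0.0991 with the block). Adamts1, Lox, Timp3 and Thbs1 were chosen for these paragraphs after their values were seen.

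**Figure D4:**
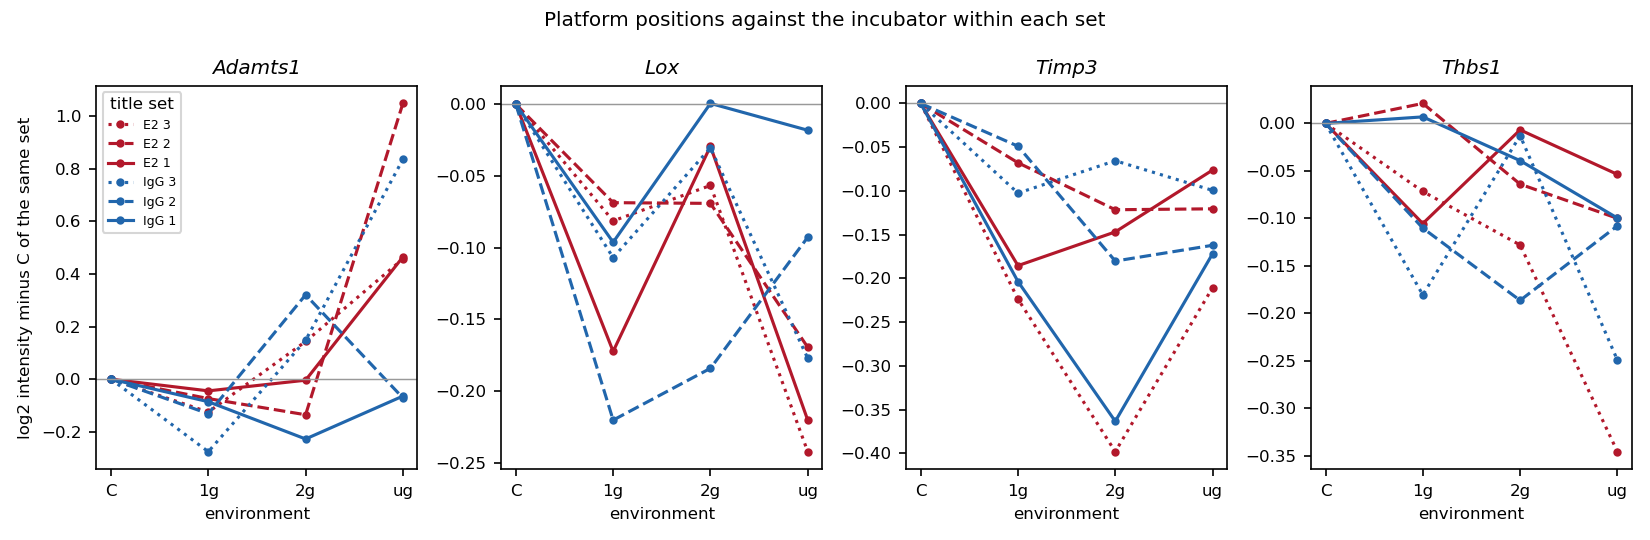
Each line is 1 title set, red for E2 and blue for IgG, and gives the log2 intensity at C, 1g, 2g and ug minus that at C of the same set; the vertical scales differ between panels. Adamts1 is above 0 at ug in 4 of 6 sets, Timp3 is below 0 at every position in every set, and Lox and Thbs1 are below 0 at ug in every set.

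The antibody was compared with IgG in each environment. In the incubator limma called 423 of all genes (2.92%) and 0 members. At an unadjusted p below 0.05 it had 6 of the 39 members, beside 4329 of the 14489 genes. At 1g, 2g and ug and over set means it called 0 genes (0%) and 0 members. There 1, 2, 2 and 4 members had an unadjusted p below 0.05, beside 1804, 626, 1862 and 3129 of all genes. Eln (10534343) read 6.59, 6.75 and 6.98 in E2 cells in the incubator (replicates 1 to 3), against 6.35, 6.52 and 6.49 in IgG cells. The arrays did not overlap, and the difference was 0.32 ± 0.09 (adjusted p = 0.0559). Over the 24 arrays Eln averaged 6.68, against 8.41 for the median gene tested and a filter level of 5.90 to 6.08. Mmp9 (10478633), the gene of gelatinase B, read 7.85, 7.94 and 8.09 in E2 cells, against 8.37, 8.32 and 8.08 in IgG cells, and the arrays overlapped (-0.29 ± 0.10, adjusted p = 0.0706). Col1a2 (10536220) read 7.73, 7.61 and 7.63 in E2 cells, against 7.40, 7.34 and 7.50 in IgG cells, with no overlap (0.24 ± 0.09, 0.0834).

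At 1g the members with the smallest p were Col11a1 at 0.16 ± 0.08, Col1a2 at 0.16 ± 0.09 and Mmp10 at -0.57 ± 0.33. At 2g they were Mmp2 at -0.12 ± 0.05, Mmp9 at -0.24 ± 0.10 and Eln at 0.20 ± 0.09. At ug they were Plod2 at -0.19 ± 0.08, Col11a1 at 0.17 ± 0.08 and Mmp9 at -0.19 ± 0.10. The smallest adjusted p of a member was 0.401 at 1g, 0.953 at 2g and 0.336 at ug. Col11a1 averaged 6.58 over all arrays, which like Eln is below the median gene tested. Over set means, Eln averaged 6.84, 6.75 and 6.76 in E2 3, E2 2 and E2 1, against 6.58, 6.63 and 6.54 in IgG 3, IgG 2 and IgG 1 (0.20 ± 0.05, adjusted p = 0.147). Mmp9 averaged 8.06, 7.95 and 7.94 in the E2 sets, against 8.13, 8.17 and 8.26 in the IgG sets (-0.21 ± 0.06, 0.163). Plod2 averaged 10.09, 9.97 and 10.06, against 10.24, 10.16 and 10.22 (-0.16 ± 0.06, 0.194). For these 3 genes, and for Mmp2 among the other members, each E2 set mean lay on the same side of every IgG set mean. The share of all genes with such an order was not counted, and no member passed the threshold.

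The antibody comparison depended on replicate number 3. Fits without it rested on numbers 1 and 2 alone, in each group and in the set means of each arm. Their p-values measure the spread among these few arrays and sets. Without number 3 in both arms, 21 members were called in the incubator (16 higher and 5 lower in E2, with 29.8% of all genes called), 19 at 1g (17 and 2, 25.1%), 13 at 2g (12 and 1, 13.7%) and 18 at ug (15 and 3, 23.9%). Over set means 27 were called (21 and 6, 43.1%). P4ha3 was then higher in E2 by 1.35 ± 0.06 over set means (adjusted p = 1.3e-05), Col3a1 by 1.03 ± 0.07 (3.4e-05) and Col6a1 by 0.86 ± 0.06 (3.6e-05), and Mmp10 was lower, at -0.81 ± 0.05 (3.1e-05). In set E2 3 these genes lay on the IgG 1 and IgG 2 side, and in IgG 3 on the E2 1 and E2 2 side. Without number 1 or without number 2, 0 members were called in each of these 5 comparisons. Over the 3 sets of an arm, the antibody and the set cannot be told apart.

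Other matrix genes were read from lists written with earlier results known. By the F test over sets, 10 of 15 genes for collagen folding and secretion were called, 3 of 5 for procollagen processing, 13 of 31 other collagens, 10 of 13 for basement membrane, 10 of 15 for elastic fibres and fibulins, 4 of 7 for proteoglycans and hyaluronan, 8 of 14 matricellular genes and 11 of 18 other proteases and inhibitors, beside the 59% of all genes. Tgfbi, which encodes a collagen-binding adhesion protein, averaged 10.62 ± 0.07 in E2 3 and 11.78 ± 0.07 in E2 2, and 11.74 ± 0.06 in IgG 3 and 10.84 ± 0.06 in IgG 1. Ctsk, the gene of the collagen-degrading cathepsin K, had the opposite order, at 11.89 ± 0.04 in E2 3 and 10.33 ± 0.19 in E2 2, and 10.49 ± 0.15 in IgG 3 and 11.69 ± 0.07 in IgG 1. Fbln5, which encodes the elastic-fibre protein fibulin-5, averaged 10.33 ± 0.13 in E2 3 and 8.72 ± 0.08 in E2 2, and 8.66 ± 0.10 in IgG 3 and 9.87 ± 0.12 in IgG 1. The smallest p of the other lists belonged to Fkbp14, Pcolce, Col10a1, Lamc1 and Vcan.

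In the incubator, 5 of the 31 other collagens were called higher in E2 than in IgG: Col8a2 by 0.51 ± 0.10 (adjusted p = 0.0371), Col4a5 by 0.42 ± 0.10, Col27a1 by 0.41 ± 0.10, Col26a1 by 0.39 ± 0.10 and Col4a4 by 0.28 ± 0.06 (0.0462 or less), where 1.6% of all genes were called higher. The 423 calls of this comparison became 46 with quantile normalization, 60 with no filter, and 0 with only the arrays compared or without replicate 1 or replicate 2. Mia3, whose product loads procollagen into transport carriers, was lower by -0.44 ± 0.10 (0.0414). Serpinh1, the gene of the collagen chaperone HSP47, was called higher at 1g than at C in the IgG arm with the block only, by 0.32 ± 0.05 (adjusted p = 0.0213), and for the IgG platform mean by 0.28 ± 0.04 (0.0105).

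Likeness was also ranked by Pearson r over the 24 arrays, only among tested genes outside the members and the matrix lists above. Of these, the genes most like the mean of Col1a1, Col1a2 and Col3a1 were Epb41l1 (0.981), Mrc2 (0.972), Pdgfra (0.965), Pdgfrb (0.965) and Slc6a6 (0.962). Those most like the mean of Mmp3, Mmp10 and Mmp13 were Cxcl9 (0.904), Zc3h12a (0.884), Cd40 (0.873), Hsph1 (0.871) and Slc7a2 (0.867). Mmp13 correlated negatively with Mmp3 and Mmp10, as given above, so this mean is not a pattern that these MMP genes share. The arrays fall into the sets described above, so these values describe likeness over sets as much as over arrays.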

How the data were processed

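The series matrix holds log2 intensities, deposited by the authors, of 24 arrays and 35556 probe sets. That they are log2 was judged from their range of 2.361 to 14.06. MAS5 is named in the submitters' processing notes, with no version, and the scaling between arrays is not given in the sources used here. Exactly 1 gene symbol was annotated for 21789 rows. Rows were kept if 3 or more arrays read them at or above that array's 40th percentile, and the brightest row of a gene was used. The number of arrays limits the precision.

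Genes were fitted with limma 3.58.1 in R 4.3.3 as 8 group means with a variance trend and no block, two-sided, with Benjamini-Hochberg adjustment over all genes of a comparison and a threshold of 0.05. Sets were compared with environment fitted within each arm, and E2 with IgG also over 6 set means. Whether numbers pair arrays was checked from deviations from group means: all 36 pairs of 1 arm and number correlated above 0.1. This pairing comes from the data, so arm and number were used as a block as an alternative. Other alternatives were quantile normalization, no filter, mean of rows, a fit of only the arrays compared, no trend, and fits without single replicates, arrays or environments. The choice of dropping IgG 2 at 2g and at ug was taken over from earlier work on these data. The comparisons over both arms, their alternatives, the block by number over both arms and the set comparisons without those arrays were chosen after seeing the data. The block could not be fitted to E2 against IgG in 1 environment, since each set lies in 1 arm. The code was tested on simulated data. The members, gene lists and comparisons were chosen with earlier results of these data known. Values are given for members called, the smallest p per comparison, the 10 widest ranges of set means and the brightest rows. Promoters are from RefSeq, and chromosome 18 was not used for sequences.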

Additional observations from a re-analysis of the deposited data

How the results depend on the processing

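Each comparison was repeated under each alternative that applied to it. The count of members called kept to within 1.5 times in 381 such results and moved in 25. A count of 0 that stayed at 0 was taken as kept, and every platform and antibody comparison started from 0 members. Leaving out each replicate number gave 0 to 21 members for E2 against IgG in the incubator, 0 to 19 at 1g, 0 to 13 at 2g, 0 to 18 at ug and 0 to 27 over set means. The replicate block within arm gave 1 member, Lox, for the platform and for ug against C over both arms, alone, with quantile normalization and with no filter, and for ug also without the 2g and ug arrays of IgG replicate 2. Between sets, E2 3 against IgG 2 fell to 1, 2 and 1 members without C, 2g and ug, and to 0 without the 2g and ug arrays of IgG 2. E2 3 against IgG 1 gave 5 and 6 without C and ug, E2 2 against E2 1 gave 3, 0, 0 and 4 without C, 1g, 2g and ug, E2 2 against IgG 3 gave 2 without 2g, and E2 1 against IgG 3 gave 4 with no variance trend and 4 without 1g. Adamts1 at ug against C in the IgG arm reversed to -0.068 without replicate 3, in a range of -0.068 to 0.422 over the fits that left out a replicate or its arrays. The cause was not tested. Over all genes, the block gave 7, 102, 97 and 91 calls for IgG 1g, the IgG platform mean, the platform and ug over both arms, against 0 without it. For E2 against IgG in the incubator, 423 calls became 46 with quantile normalization, 60 with no filter, 0 with only the arrays compared, 0 without replicate 1, replicate 2 or the 2g and ug arrays of IgG 2, and 4313 without replicate 3. With replicate 3 left out, 3641 genes were called at 1g, 1981 at 2g, 3466 at ug and 6246 over set means. The replicate block changed no other call on members, and blocked by number over both arms it gave 0 members and 520 genes in the incubator. The limits are 3 arrays a group, unknown scaling, and sets that differ by more than positions do.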
